A study of Rattus norvegicus with 8 samples.

Results

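Coagulation and complement factors that the liver makes were followed across mature hepatocytes (MHs) and small hepatocyte-like progenitor cells (SHPCs) of the rat. The set holds 39 genes of 36174 gene names on the array, of which 18821 had a tested probe. The genes were chosen by name, as factors, inhibitors and regulators of the clotting, fibrinolytic and complement systems, and not by any measured value. SHPCs are small hepatocyte-like cells that appear as clusters after partial hepatectomy (PH) in the liver of rats given retrorsine (Ret), a plant alkaloid that blocks hepatocyte division. The series asked how SHPCs change when the recipient also receives bone marrow-derived mesenchymal cells (BM-MCs). Cells were cut from frozen liver sections by laser microdissection (LMD), and their RNA was hybridised to 1-colour Agilent rat arrays.

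The 8 samples were 2 of MHs and 3 of SHPCs from control recipients, and 3 of SHPCs from recipients given BM-MCs through the spleen. Every group came from F344 rats treated with Ret and PH, so that the MHs are from treated livers too and not from an untouched liver. The labels give the strain as F344 [dipeptidylpeptidase IV (DPPIV)+ strain], but by the study's methods the recipients were DPPIV-negative females and the BM-MC donors DPPIV-positive. The sources used here do not give the age of the recipients. LMD captures a patch of tissue, so that other cells of the patch come with it. No label or method says which animal a sample came from, and the p-values below therefore measure only the spread among these samples, part or all of which may be technical.

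Hepatocytes secrete most plasma clotting and complement proteins. In the clotting cascade, serine protease zymogens activate one another until thrombin cuts fibrinogen, while antithrombin, heparin cofactor II and the protein C system hold the cascade back and plasmin dissolves the clot. Complement starts from antibody (C1), from mannose-binding lectin or from the alternative pathway, meets at C3, and ends in the pore built from C5 to C9. Transcription of these genes in hepatocytes is known to depend on liver-enriched factors such as HNF1, HNF4A, HNF6 and C/EBP proteins, and some complement genes are also transcribed by macrophages and other cells of the liver.

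All 39 genes had a tested probe, that is a probe marked as well above background by 3 or more of the 7 arrays whose background marks were complete. The 39 genes were measured by 48 probes on 78 spots, with 1 probe for 32 genes and several for 7. Of the 39 genes, 38 were well above background on all 7 of these arrays, so that the filter left none of them out. C5, the component whose cleavage starts the terminal pathway, was above background on 1 of 2 MH arrays, on neither of the 2 control SHPC arrays with a mark and on 2 of 3 BM-MC arrays. It passed the filter through arrays of the MH and BM-MC groups alone, so that no fold or test of it is read here. The counts below are over the other 38 genes where they say so. Medians over 39 genes, the shares for replicate 3 and the correlations still hold C5, and it was among the genes chosen by lowest p. The probe named Kng1 on the array carries an accession that RefSeq lists as Kng2. The hepatocyte identity of the captured cells was checked on 12 markers (Alb, Ttr, Apoa1, Apoh, Tf, Cps1, Hnf4a, Cebpa, Tat, Pck1, Cyp2e1 and Cyp1a2), all tested. Their mean log2 level was 4.65 to 4.76 in the MHs, 4.64 to 5.07 in control SHPCs and 4.72 to 5.0 with BM-MCs, although single markers lay further apart (a log2 difference of MHs from controls of 1.23 for Cyp2e1 and -1.04 for Tat). The 8 arrays lay on 1 slide, with the 2 MH arrays in the first row beside control SHPC replicates 1 and 2, and with the 3 BM-MC arrays in the second row beside control SHPC replicate 3. Only the control SHPCs lay in both rows. With the row of the slide as a block, MHs are therefore set against control replicates 1 and 2, and BM-MC samples against control replicate 3. BM-MC samples and MHs are then linked only through the difference of control replicate 3 from control replicates 1 and 2.

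Each gene is given by the brightest of its tested probes. The last 30 bases of the 60-base probes that the results turn on are shown to make clear which transcript end was measured and where pairs of probes for 1 gene overlap. Capitals mark the letters of a polyadenylation signal (AATAAA or ATTAAA), which the probe of Cfd and the brightest probe of C9 hold near their 3′ end.
Cfd: ccggagaccgtgactcacAATAAAtgcagc
Serpinf2: taggttgggctagtccctaacttagagtcc
C1r: ttctggggacccaactctcaagcatgacgc
C1s: gaaaactatgcaggagaatagtgggcccaa
C1s, dimmer probe: gactggatcctgaaaactatgcaggagaat
C9: ggcaatgccaatctctcgctAATAAAacaa
C9, dimmer probe: ataatctcattcctttgacaatgaaagatg
C5: gtgagtctcttgtatcaaaccatgtttcat
The array's annotation places these probes at chr7:11325547-11325604 (Cfd), chr10:62748499-62748558 (Serpinf2), chr4:160728630-160728689 (C1r), chr4:160736725-160736784 (C1s), chr2:55791073-55791131 (C9) and chr3:14080226-14080285 (C5), in a genome build that the sources used here do not name. The dimmer C9 probe spans 4943 bases of that genome, from 55784980 to 55789922 on chromosome 2, and therefore crosses at least 1 intron. The C1s probes are offset by 11 bases and share 49, so that they are not independent readings of the gene.

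The 250 bases before the start of F9, F12 and C1r in RefSeq are shown because all 3 genes were among the 8 members with the lowest unadjusted p in MHs against controls and carry letters of a liver-enriched factor's motif. Capitals mark matches to the motifs searched on both strands, namely HNF1 (GTTAAT), HNF4A (CAAAGTCCA), C/EBP (TTGCNNAA), STAT (TTCNNNGAA), HNF6 (ATTGATT) and FOXA (TGTTTAC).
F9: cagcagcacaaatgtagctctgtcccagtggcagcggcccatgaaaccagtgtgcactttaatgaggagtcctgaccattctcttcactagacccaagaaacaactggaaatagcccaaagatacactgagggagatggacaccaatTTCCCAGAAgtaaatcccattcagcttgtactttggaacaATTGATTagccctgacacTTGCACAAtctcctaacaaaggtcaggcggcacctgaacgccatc
F12: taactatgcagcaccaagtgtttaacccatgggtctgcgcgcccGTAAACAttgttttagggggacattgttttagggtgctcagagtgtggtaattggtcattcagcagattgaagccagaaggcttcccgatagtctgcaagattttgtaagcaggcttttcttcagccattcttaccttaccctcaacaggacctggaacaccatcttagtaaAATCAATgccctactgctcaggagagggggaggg
C1r: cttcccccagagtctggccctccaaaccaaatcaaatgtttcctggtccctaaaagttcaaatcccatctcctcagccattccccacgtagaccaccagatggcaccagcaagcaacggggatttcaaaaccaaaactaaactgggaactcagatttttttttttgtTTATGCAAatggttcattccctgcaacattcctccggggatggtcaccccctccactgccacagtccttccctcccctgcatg
These stretches lie at chrX:143388392-143388641 on the plus strand (F9), chr17:9212569-9212818 on the plus strand (F12) and chr4:159098763-159099012 on the plus strand (C1r) of GRCr8. In F9, HNF6 letters ran from -63 to -57 relative to the start, C/EBP letters from -45 to -38 and STAT letters, which read the same on both strands, from -103 to -95. In F12, HNF6 letters ran from -34 to -28 and FOXA letters from -206 to -200, both on the other strand. In C1r, C/EBP letters ran from -83 to -76 on the other strand. RefSeq promoter windows of 300 bases, with 50 bases after the start included, were at hand for 30 of the 39 genes. They were taken by gene name, so that the window of Kng1, which held C/EBP letters, is not that of Kng2. Of the 8 members with the lowest unadjusted p in MHs against controls, Serpinf2, Cfd, F7 and Mbl1 held no letters of these motifs. C1s had no window. HNF1 letters were in 8 of these 30 windows (26.7%) and in 7.37% of all 27457 windows, and C/EBP letters in 11 (36.7%) and 10.5%. HNF6 letters were in 3 (10%, C8a, F12 and F9) and 2.52%, FOXA letters in 5 (16.7%) and 3.76%, STAT letters in 5 (16.7%) and 8.68%, and HNF4A letters in 1 (Proz, 3.33%) and 0.375%. A match of letters is a description and shows no binding.

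Most of the 39 genes were at close to the same level in MHs, control SHPCs and SHPCs with BM-MCs. Levels are log2 signals relative to the 75th percentile of the array, and a difference of levels is a log2 fold change. Limma is a linear model with a spread shared across probes. In MHs against control SHPCs it called 0 of the 38 genes without C5 at an adjusted p under 0.05. The share of all 23111 tested probes was 1.13%. The median log2 fold change of the 38 genes without C5 was 0.03, as it was over all tested probes (0.03). The values ran from -0.62 for Serpinf2 to 1.0 for Cfd. At an unadjusted p under 0.05, 8 of the 38 genes differed, which is 21.1% and near the 19.2% of all tested probes. Of these, 5 were higher in MHs (11% of all probes) and 3 lower (8.21%). The groups did not overlap for 13 genes, or 34.2% of the 38, against 41.4% of all probes, with 8 higher (22.7% of all probes) and 5 lower (18.7%). The lowest adjusted p of a member was 0.163, and the methods' t-test, the plain test that the study names, found 4 genes higher (9.39% of all probes) and 1 lower (8.08%) at an unadjusted p under 0.05 and 0 after Benjamini-Hochberg adjustment. Less RNA per cell and fewer cells of a type in the captured patch cannot be told apart in such samples.

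**Figure D1:**
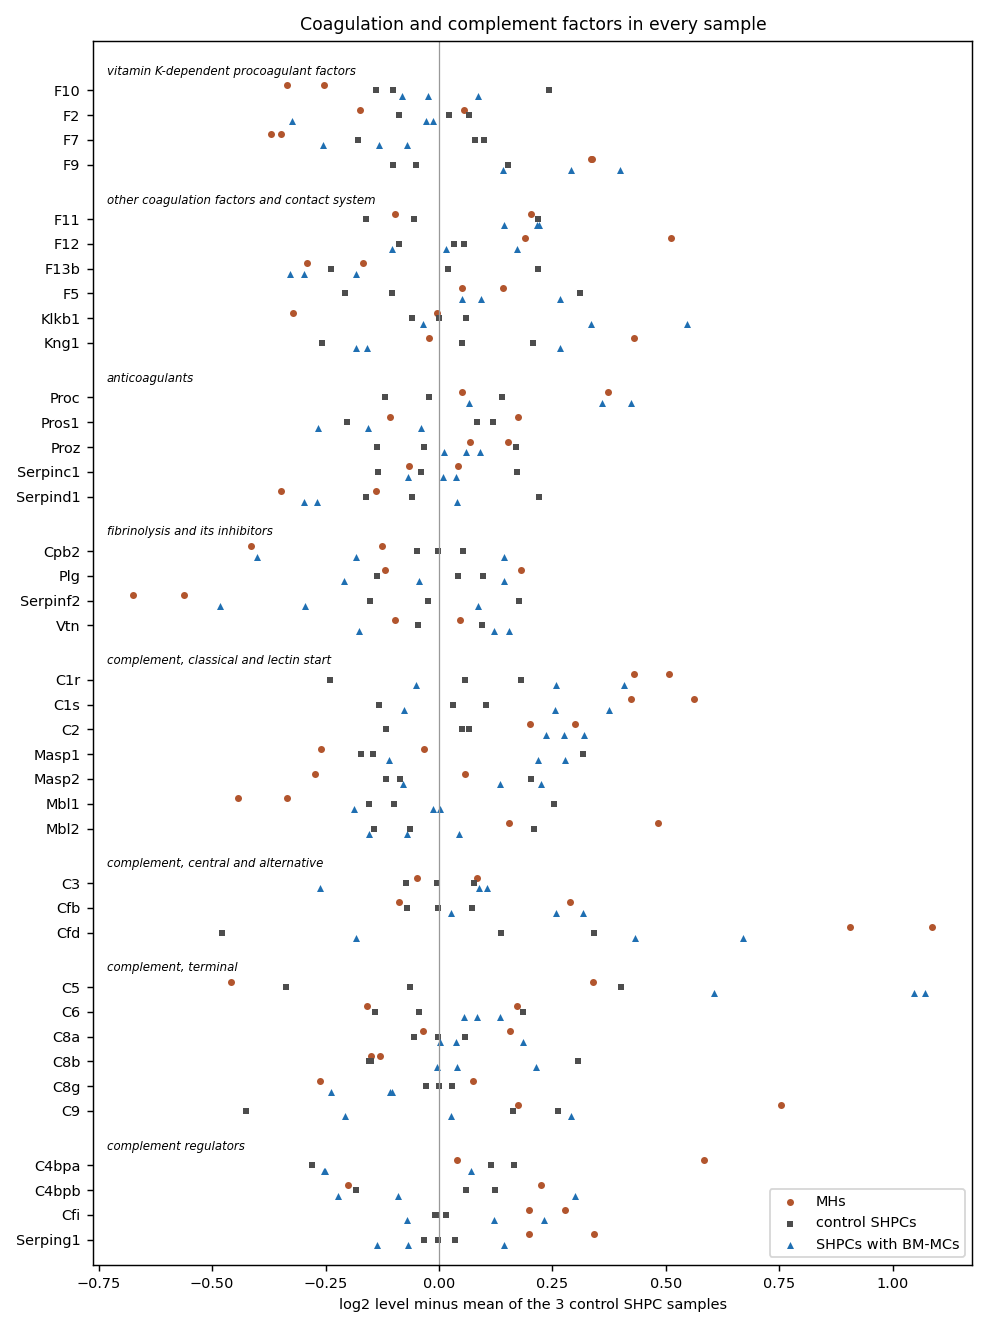
Log2 level of each of the 39 genes in every sample minus the mean of the 3 control SHPC samples, with genes grouped by role on the vertical axis. MHs are circles, control SHPCs squares and SHPCs with BM-MCs triangles. Most points lie within 0.5 of the control mean, and the widest departures include those of Cfd, C9 and Serpinf2 in MHs. C5 was not well above background in the controls, so that its place there is not a measured level.

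The comparison of SHPCs with BM-MCs against control SHPCs shares the control samples with the first. Limma again called 0 of the 38 genes, against 0.0216% of all tested probes. The median log2 fold change was 0.03 for the 38 genes without C5 and 0.02 for all probes, with a range from -0.27 for F13b to 0.31 for Cfd. C2 alone of the 38 had an unadjusted p under 0.05 and was higher with BM-MCs, which is 2.63% of the genes. Of all probes 16.6% had such a p, 10.7% higher and 5.92% lower. The groups did not overlap for 2 genes (C2 higher, C8g lower), or 5.26% of the 38, against 24.7% of all probes (13% higher and 11.6% lower). The methods' t-test found 1 of the 38 genes higher (C2, 8.12% of all probes) and 1 lower (C8g, 6.82%) at an unadjusted p under 0.05 and 0 after adjustment. With median scaling of the arrays, which set the median of all probes at -0.17, the differences of C2, F9, Proc, Klkb1 and Cfb with BM-MCs were 0.09, 0.09, 0.09, 0.09 and 0.01 and that of C8g -0.34. Median scaling moves every gene of a comparison by the same amount.

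In SHPCs with BM-MCs against MHs, limma called 0 of the 38 genes, against 0.338% of all tested probes. This comparison shares its samples with both others. The median was -0.01 for the 38 genes without C5 and 0.00 for all probes, and the values ran from -0.69 for Cfd to 0.44 for Klkb1. Mbl2 alone of the 38 had an unadjusted p under 0.05 and was lower (2.63% of the genes). Of all probes 13.3% had such a p, 7.33% higher and 5.95% lower. The groups did not overlap for 11 genes, or 28.9% of the 38, against 32.3% of all probes, with 5 higher (16% of all probes) and 6 lower (16.3%). The methods' t-test found 2 genes higher (4.39% of all probes) and 0 lower (4.87%) at an unadjusted p under 0.05 and 0 after adjustment. With median scaling, which set the median of all probes at -0.19, the differences of Klkb1 and Mbl1 were 0.25 and 0.13, and those of Serping1, F12 and Mbl2 -0.49, -0.52 and -0.58.

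The width of the intervals says what size of change the arrays leave possible. The 95% interval of the log2 fold change lay wholly within 2-fold in either direction for 35 of the 38 genes in MHs against controls, 37 in SHPCs with BM-MCs against controls and 36 in SHPCs with BM-MCs against MHs. Over all tested probes these shares were 72.3%, 78.3% and 75.1%, against 92.1%, 97.4% and 94.7% of the 38 genes. The exceptions were Serpinf2, Cfd and C9 in the first comparison, Cfd in the second, and Cfd and C9 in the third. The intervals are not adjusted for the number of genes.

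**Figure D2:**
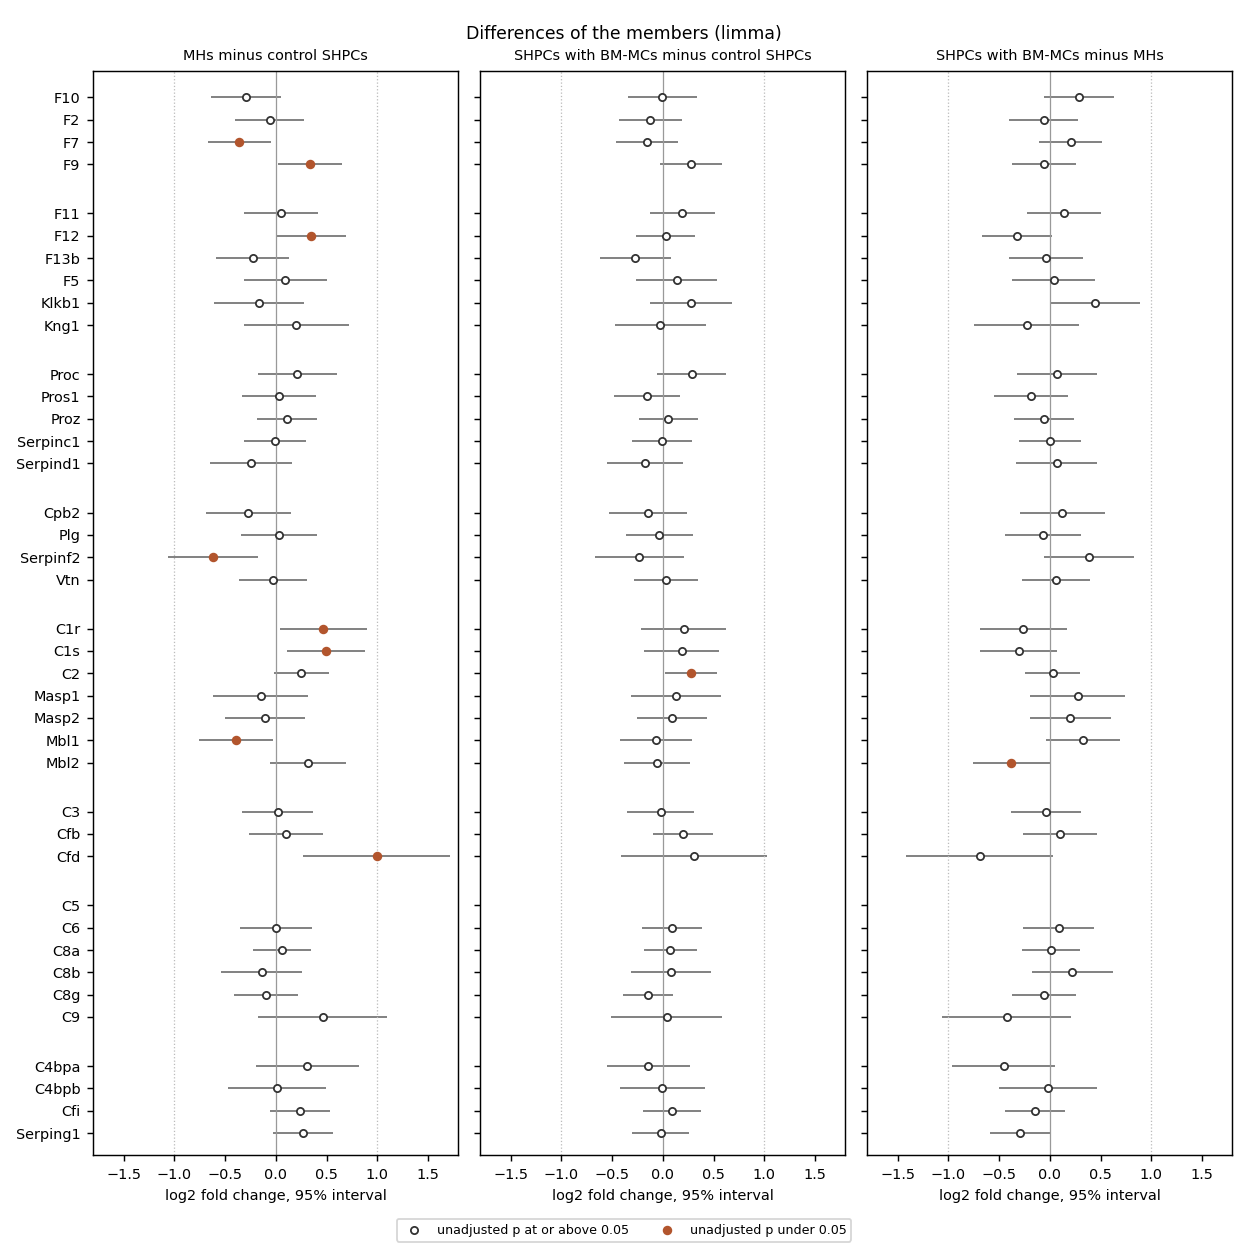
Log2 fold change (points) with its 95% interval (bars) from limma for each of the 38 genes without C5, whose row is empty, in the 3 comparisons, with filled points at an unadjusted p under 0.05 and dotted lines at 2-fold. The filled points are 8 in the first panel, 1 in the second and 1 in the third, and no gene passed an adjusted p of 0.05.

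The vitamin K-dependent procoagulant zymogens F2 (prothrombin), F7, F9 and F10 had a median log2 fold change of -0.18 in MHs against controls and -0.06 with BM-MCs, and none was called. F9, the protease whose loss causes haemophilia B, was at 3.78 and 3.78 in the MHs, at 3.34, 3.39 and 3.59 in control SHPCs and at 3.73, 3.84 and 3.58 with BM-MCs. Both MHs lay above all controls, and BM-MC replicate 3 fell just under control replicate 3. The log2 fold change of F9 was 0.34 in MHs (SE 0.13, limma adjusted p = 0.240) and 0.28 with BM-MCs (SE 0.13, adjusted p = 0.336). The latter was 0.42 without both replicates 3. It was smaller with the row of the slide as a block, which leaves only control replicate 3 beside the BM-MC samples. F7, which with tissue factor starts clotting, was at -0.35 and -0.38 in the MHs, at 0.09, -0.18 and 0.07 in control SHPCs and at -0.26, -0.14 and -0.08 with BM-MCs. It was lower in both MHs than in every control, by 0.36 on the log2 scale (SE 0.13, adjusted p = 0.217). F10, which RefSeq places next to F7, had a log2 fold change of -0.29 in MHs with groups that did not overlap, or -0.17 without control replicate 3, and F2 one of -0.06.

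Of the other clotting factors and the contact system (F5, F11, F12, F13b, Klkb1 and Kng1), F12 was furthest from controls in MHs. F12, which starts the contact pathway, was at 6.04 and 5.72 in the MHs, at 5.44, 5.59 and 5.56 in control SHPCs and at 5.55, 5.70 and 5.43 with BM-MCs. Both MHs were above every SHPC sample, with a log2 fold change of 0.35 against controls (SE 0.15, adjusted p = 0.256) and of -0.32 for BM-MC samples against MHs (adjusted p = 0.395). Without MH replicate 1 these were 0.19 and -0.16, and without MH replicate 2 the second was -0.48. Klkb1, the plasma prekallikrein that F12 activates, was at 2.10 and 1.78 in the MHs, at 2.11, 2.16 and 2.04 in control SHPCs and at 2.07, 2.44 and 2.65 with BM-MCs. The BM-MC samples reached higher but overlapped both other groups (0.44 against MHs, SE 0.19, adjusted p = 0.376, and 0.28 against controls). Without MH replicate 2 the first was 0.29, and the second was 0.44 without BM-MC replicate 1 and 0.15 without BM-MC replicate 3. F13b, the carrier subunit of the fibrin-crosslinking factor, was at -0.30 and -0.42 in the MHs, -0.11, -0.37 and 0.09 in control SHPCs and -0.43, -0.46 and -0.31 with BM-MCs. Its difference with BM-MCs was -0.27 with an adjusted p of 0.391, and control replicate 2 lay among the BM-MC samples. Without control replicate 3 it was -0.16, and with the row of the slide as a block -0.49. F5, F11 and Kng1 had log2 fold changes of 0.05 to 0.20 in MHs and -0.02 to 0.19 with BM-MCs, and the 0.20 of Kng1 was 0.43 without MH replicate 1 and -0.02 without MH replicate 2.

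The anticoagulants Proc (protein C), Pros1 (its cofactor protein S), Proz (protein Z), Serpinc1 (antithrombin) and Serpind1 (heparin cofactor II) had medians of 0.03 in MHs and -0.01 with BM-MCs, and 0 of 5 reached an unadjusted p under 0.05 in either by limma (19.2% and 16.6% of all probes) or by the methods' t-test. Proc was at 5.14 and 4.82 in the MHs, at 4.65, 4.74 and 4.91 in control SHPCs and at 4.83, 5.19 and 5.13 with BM-MCs, with groups that overlapped. Its difference with BM-MCs was 0.28 (SE 0.14, adjusted p = 0.366), or 0.14 with the row of the slide as a block, and its dimmer probe gave 0.11. In MHs the 2 Proc probes differed in sign, at 0.21 and -0.08, and the first was 0.05 without MH replicate 1 and 0.37 without MH replicate 2. Serpinc1 was at -0.01 in both comparisons on its brightest probe and at -0.29 and -0.24 on the dimmer one, and Serpind1 was at -0.24 in MHs and -0.18 with BM-MCs, or at -0.13 and -0.07 without control replicate 3.

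Among the genes of fibrinolysis, Plg (plasminogen) and Vtn (vitronectin, which stabilises the plasminogen activator inhibitor) had log2 fold changes of 0.03 and -0.03 in MHs and of -0.04 and 0.03 with BM-MCs. For the inhibitors Serpinf2 and Cpb2, both MHs lay below every control. Serpinf2, which encodes α2-antiplasmin, the main inhibitor of plasmin, was at 2.66 and 2.78 in the MHs, at 3.19, 3.31 and 3.52 in control SHPCs and at 2.86, 3.04 and 3.42 with BM-MCs. Both MHs lay under every SHPC sample. It had the lowest unadjusted p of the set in MHs against controls (0.0128), with a log2 fold change of -0.62 (SE 0.19, adjusted p = 0.163). Over 25 alternative settings its log2 fold change ran from -0.69 to -0.49. Cpb2, the carboxypeptidase that protects fibrin from plasmin, had a log2 fold change of -0.27 in MHs (adjusted p = 0.440), with groups that did not overlap. It was -0.13 without MH replicate 1 and -0.41 without MH replicate 2.

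Of the complement genes that start the classical and lectin pathways, the proteases C1r and C1s were higher in both MHs than in every control. C1r was at 3.41 and 3.34 in the MHs, at 3.09, 2.97 and 2.67 in control SHPCs and at 3.17, 3.32 and 2.86 with BM-MCs. C1s, its substrate and its neighbour in RefSeq with no gene between, was at 2.85 and 2.99 in the MHs, at 2.53, 2.46 and 2.29 in control SHPCs and at 2.68, 2.80 and 2.35 with BM-MCs. In both genes the MHs lay above all SHPC samples and replicate 3 was the lowest of each SHPC group. The log2 fold changes in MHs were 0.47 for C1r (SE 0.18, adjusted p = 0.234) and 0.49 for C1s (SE 0.16, adjusted p = 0.184), and the overlapping C1s probe gave 0.45. With BM-MCs they were 0.20 and 0.18, with intervals from -0.22 to 0.63 and from -0.19 to 0.55. Without BM-MC replicate 3 they were 0.33 and 0.32, without BM-MC replicate 2 0.10 and 0.09, and without control replicate 3 0.08 and 0.12. For both genes all BM-MC samples lay above control replicate 3, the only control in their row of the slide.

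C2, the protease that C1s cuts to build the C3 convertase, was at 1.92 and 1.82 in the MHs, at 1.5, 1.67 and 1.69 in control SHPCs and at 1.90, 1.94 and 1.86 with BM-MCs. All 5 MH and BM-MC samples lay above all 3 controls. The difference with BM-MCs was 0.28 (SE 0.11, unadjusted p = 0.0394, adjusted p = 0.281). The mannose-binding lectins, which start the lectin pathway, had log2 fold changes of opposite sign in MHs, with groups that overlapped for Mbl2. Mbl1 was at 1.69 and 1.58 in the MHs, at 1.87, 1.93 and 2.28 in control SHPCs and at 1.84, 2.03 and 2.01 with BM-MCs, a log2 fold change of -0.39 in MHs against controls (SE 0.16, adjusted p = 0.241) and of 0.32 for BM-MC samples against MHs (adjusted p = 0.414). With the row of the slide as a block the latter reversed to -0.06. Mbl2 was at -0.23 and -0.56 in the MHs, at -0.78, -0.86 and -0.51 in control SHPCs and at -0.67, -0.79 and -0.87 with BM-MCs. Its log2 fold change in MHs against controls was 0.32 (unadjusted p = 0.0875, adjusted p = 0.327), or 0.15 without MH replicate 1 and 0.48 without MH replicate 2. It was lower with BM-MCs than in both MHs, while controls overlapped the MHs (-0.38, SE 0.16, adjusted p = 0.375), by -0.21 without MH replicate 1 and -0.69 with the row of the slide as a block. The Mbl-associated proteases Masp1 and Masp2 had log2 fold changes of -0.15 and -0.11 in MHs and 0.13 and 0.09 with BM-MCs, and the 3 Masp1 probes differed in sign in MHs, from -0.15 to 0.12. On the brightest probe the sign in MHs turned without control replicate 3 for Masp1 and without MH replicate 2 for Masp2. Both values with BM-MCs were larger without control replicate 3. With BM-MCs the dimmer Masp1 probes gave 0.43 (unadjusted p = 0.0280, adjusted p = 0.260) and 0.30, both with groups that did not overlap, and in MHs the dimmer Masp2 probes gave -0.33 and -0.40. The -0.33 was smaller in size without MH replicate 1.

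In the centre of the cascade, C3, on which all pathways converge, stayed at 0.02 in MHs and -0.02 with BM-MCs, with intervals within 2-fold. Cfd, the protease that cuts factor B and so permits the alternative pathway, had the largest difference of the set in MHs. It was at 3.16 and 2.98 in the MHs, at 2.21, 2.42 and 1.60 in control SHPCs and at 2.51, 2.74 and 1.89 with BM-MCs. Both MHs lay above all SHPC samples, and replicate 3 was the lowest of each SHPC group. The log2 fold change of Cfd in MHs was 1.0 (SE 0.31, 95% interval 0.27 to 1.72, unadjusted p = 0.0137, adjusted p = 0.166), and 0.76 within the first row of the slide, where control replicate 3 is absent. Against MHs the BM-MC samples were lower by 0.69 on the log2 scale (adjusted p = 0.391), or by 0.45 without BM-MC replicate 3. The direction was lost when the row of the slide was fitted as a block (0.03), a block that rests on control replicate 3. The 0.31 with BM-MCs against controls was 0.07 without control replicate 3 and 0.55 without BM-MC replicate 3. All BM-MC samples lay above control replicate 3, the only control in their row, so that with the row as a block the difference was larger. The Cfd probe was printed on 10 spots, whose SD within an array was 0.033 to 0.061, against an SD of 0.43 between control samples and 0.44 between BM-MC samples. Cfb, the substrate of Cfd, was at 4.62 and 5.0 in the MHs, at 4.71, 4.64 and 4.79 in control SHPCs and at 4.74, 5.03 and 4.97 with BM-MCs, a difference of 0.20 with BM-MCs (adjusted p = 0.436).

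In the terminal pathway, C5 was read close to background. Its log2 signal was -6.66 and -5.86 in the MHs, -5.80, -6.26 and -6.54 in control SHPCs and -5.59, -5.13 and -5.15 with BM-MCs. Only MH replicate 2 and BM-MC replicates 2 and 3 were well above background, and control replicate 2 has no mark. The signals of the BM-MC samples lay above all others, but no fold, bound or test is given, since neither marked control array nor BM-MC replicate 1 was well above background. C9, which builds the pore, was at 6.10 and 6.68 in the MHs, at 6.19, 6.09 and 5.50 in control SHPCs and at 5.95, 6.22 and 5.72 with BM-MCs, with groups that overlapped. Its log2 fold change in MHs was 0.46 (adjusted p = 0.386), and 0.84 on the dimmer probe (limma unadjusted p = 0.0358, adjusted p = 0.234). On the dimmer probe both MHs lay above every control. On the brightest probe it was 0.75 without MH replicate 1, 0.17 without MH replicate 2 and 0.25 without control replicate 3, and on the dimmer probe 0.44 without MH replicate 2.

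C8g, a subunit of C8, was at 5.32 and 4.99 in the MHs, at 5.28, 5.22 and 5.25 in control SHPCs and at 5.01, 5.14 and 5.14 with BM-MCs. It was the only member lower in all BM-MC samples than in all controls, by 0.15 (adjusted p = 0.481). The pore subunits C6, C8a and C8b had log2 fold changes from -0.14 to 0.06 in MHs and from 0.07 to 0.09 with BM-MCs.

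The complement regulators C4bpa and C4bpb (the chains of C4b-binding protein), Cfi (the protease that cleaves C3b and C4b) and Serping1 (the C1 inhibitor) had log2 fold changes of 0.01 to 0.31 in MHs, with a median of 0.25, and the 0.31 of C4bpa was 0.58 without MH replicate 1 and 0.04 without MH replicate 2. Limma gave 0 of 4 an unadjusted p under 0.05 (19.2% of all probes), and the methods' t-test gave such a p to Cfi and Serping1, both higher (9.39% of all probes). Serping1 was at 6.12 and 6.27 in the MHs, at 5.92, 5.96 and 5.89 in control SHPCs and at 5.79, 6.07 and 5.86 with BM-MCs. The MHs were above all SHPC samples, with a log2 fold change of 0.27 against controls (SE 0.13, adjusted p = 0.298) and -0.29 for BM-MC samples against MHs (SE 0.13, adjusted p = 0.385). C4bpa was at 4.88 and 5.42 in the MHs, at 4.95, 5.0 and 4.56 in control SHPCs and at 4.59, 4.91 and 4.59 with BM-MCs, with a difference of -0.46 for BM-MCs against MHs (SE 0.22, adjusted p = 0.412). This value was -0.73 without MH replicate 1, -0.18 without MH replicate 2 and -0.04 with the row of the slide as a block.

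The 19 coagulation and fibrinolysis genes had a median of -0.01 in MHs and -0.01 with BM-MCs. The 19 complement genes other than C5 had a median of 0.10 in MHs and 0.08 with BM-MCs. Over all tested probes the medians were 0.03 and 0.02.

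The samples of 1 group differed among themselves. Control replicate 3 and BM-MC replicate 3 were both the lowest of their group for 5 genes (Cfd, C1r, C1s, C9 and Kng1), or 12.8%, which is near the 14.3% of all probes. Both were the highest of their group for 12 genes, among them Serpinf2, or 30.8%, against 19.4% of all probes. The mean of the 12 hepatocyte markers was likewise highest in replicate 3 of both SHPC groups, at 5.07 and 5.0. Of these 12 markers limma called 0 in MHs against controls, and at an unadjusted p under 0.05 it found 2 higher (Cyp2e1 at 1.23 and Cyp1a2 at 0.77, 11% of all probes) and 3 lower (Tat at -1.04, Cps1 at -0.92 and Apoa1 at -0.73, 8.21%).

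Marker means of other cells were set beside these samples. The macrophage and the stellate cell means were lowest in replicate 3 of both SHPC groups, and the means of the other lists were not. Of 9 Kupffer cell and macrophage markers (Cd68, Cd163, Clec4f, Marco, Csf1r, Adgre1, Vsig4, Lyz2 and C1qa), all tested, 0 were called, 5 were higher in MHs at an unadjusted p under 0.05 (11% of all probes) and 0 were lower (8.21%). Their mean log2 level was 1.30 to 1.49 in the MHs, 0.61 to 1.08 in control SHPCs and 0.76 to 1.2 with BM-MCs, with replicate 3 the lowest of each SHPC group. Cd68 was at 2.09 and 2.30 in the MHs and at 1.58, 1.53 and 0.97 in control SHPCs, and Clec4f, a Kupffer cell lectin, at 5.36 and 5.0 against 4.75, 4.71 and 4.19. Marco and Lyz2 had log2 fold changes of -0.08 and 0.07 in MHs, and the dimmer Lyz2 probes gave 0.12 and -0.83. For neither gene was BM-MC replicate 3 the lowest of its group. Of 9 stellate cell and fibroblast markers, 2 were higher (11% of all probes) and 3 lower (8.21%) in MHs at an unadjusted p under 0.05, and their mean level was -2.0 to -1.77 in the MHs, -1.92 to -1.69 in controls and -1.87 to -1.48 with BM-MCs. Of 6 granulocyte markers, S100a8, S100a9 and Retnlg were the 3 that were tested, whereas Mpo, Elane and Camp did not pass the filter. The mean level of the 3 was -3.39 and -1.58 in the MHs, -2.04 to -1.48 in controls and -3.46 to -3.14 with BM-MCs. The 6 of 8 tested erythroid and platelet markers had mean levels of -2.66 to -2.28 in the MHs, -2.58 to -1.43 in controls and -3.09 to -3.03 with BM-MCs. The -1.43 was that of control replicate 3. The 6 of 7 tested cholangiocyte and oval cell markers had mean levels of -5.06 to -4.75 in the MHs, -4.44 to -3.91 in controls and -4.49 to -4.03 with BM-MCs, and the 6 of 8 tested endothelial markers 0.43 to 0.53, 0.26 to 0.41 and 0.32 to 0.51. The part of these cells in the differences of Cfd, C1r, C1s and C9 was not tested.

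**Figure D3:**
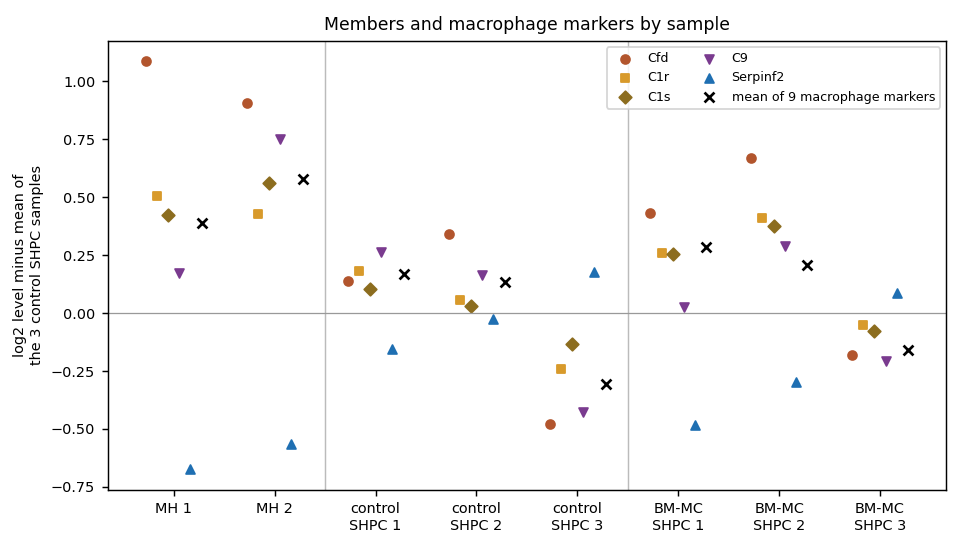
Log2 level minus the mean of the 3 control SHPC samples for Cfd, C1r, C1s, C9 and Serpinf2, and for the mean of 9 macrophage markers (crosses), in each sample. Cfd, C1r, C1s and the markers are lowest in replicate 3 of both SHPC groups and above 0 in both MHs, and Serpinf2 is the reverse.

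Genes of the same pathways outside the set were read from lists of the same kind. Of 25 tested complement genes (29 of 31 listed were on the array), Colec12, a scavenger receptor, was not well above background on either MH array and gives no fold or test. Of the other 24, 0 were called in MHs against controls, 16 were higher and 0 lower at an unadjusted p under 0.05, and the median was 0.58, against 0.03 over all probes. The 9 macrophage markers, of which C1qa and Vsig4 are also in this list, were also above controls (8 of 9 above 0, median 0.57), and their part in it was not tested. At that threshold 11% of all probes were higher and 8.21% lower. Fcna, a ficolin made by macrophages, had a log2 fold change of 0.98 in MHs (adjusted p = 0.124). With BM-MCs 1 was higher (10.7% of all probes) and 0 were lower (5.92%). This was Colec10, a collectin, at 0.47 (adjusted p = 0.294). The C5a receptor C5ar2 was at 0.43 (adjusted p = 0.303), and the median was 0.24. Against MHs the BM-MC samples had a median of -0.30 over the 24 genes, and the leukocyte integrin Itgb2, the 1 gene at an unadjusted p under 0.05 (5.95% of all probes lower), was at -0.71 (adjusted p = 0.329).

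Of 27 tested clotting and fibrinolysis genes outside the set (30 listed), 0 were called in any comparison. In MHs 6 of 27 were higher and 3 lower at an unadjusted p under 0.05, against 11% and 8.21% of all probes, and the median was -0.07. Serpine2, an inhibitor of thrombin and plasminogen activators, had a log2 fold change of 1.23 in MHs (adjusted p = 0.101). A2m, the broad protease inhibitor α2-macroglobulin, was at -4.04 and -2.27 in the MHs and at 0.89, 1.06 and -0.22 in the controls. This log2 fold change of -3.74 had an adjusted p of 0.101. With BM-MCs F8, the cofactor of F9, was at 0.37, 0.33 and -0.07 against -0.72, -0.68 and -0.36 in controls, a log2 fold change of 0.79 (unadjusted p = 0.00314, adjusted p = 0.148), and Vkorc1l1, an enzyme that regenerates vitamin K, at -0.31 (adjusted p = 0.293). BM-MC samples against MHs had Thbd (thrombomodulin) at -0.91 (adjusted p = 0.283) and Lman1, the cargo receptor that carries factors V and VIII out of the endoplasmic reticulum, at 0.54 (adjusted p = 0.306).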

How the data were processed

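RNA of 8 samples of LMD-captured rat liver cells was labelled with Cy3 and hybridised to 1-colour Agilent arrays. The authors deposited each array's scanner output and a value table of the processed signal, an intensity background-subtracted by Agilent Feature Extraction 10.7 (per the submitters' processing notes) and not scaled between arrays. For control SHPC replicate 2 the scanner output stops after 20903 of 62976 features. Its signals therefore came from the value table (the files and table differed by at most 1.19e-06 of a value) and its background marks were not used in the filter. Signals were set on the log2 scale minus the 75th percentile of each array, without spots that the scanner software marked as outliers, and a probe with several spots was given their mean. Testing required a mark of well above background from 3 or more of the 7 arrays with all their marks, which gave 23111 of 45598 probes. limma 3.58.1 in R 4.3.3 was fitted over all of them, with all 8 samples in 1 fit for MHs and with the 6 SHPC samples for BM-MCs against controls, and p-values were adjusted by Benjamini-Hochberg. The fit was also run on simulated data of independent normal noise. These hold no effects of array, row or cell mixture and say nothing about such effects here. Between 57.0% and 61.5% of spots were well above background and none was saturated, and the number of arrays limits the precision.

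Genes are named through RefSeq GRCr8, by accession for 21109 probes and otherwise by symbol or synonym, or as in the file. Values of every sample are given for the 8 genes with the lowest unadjusted p in each comparison, and of the pathway lists the 2 lowest per list are named. Which genes and lists to describe was decided with earlier results of these data known. Alternatives covered scaling, the filter on dim probes, background correction, outlier spots, blocks, the samples in the fit, the intensity trend, array weights, a t-test, averaging over probes and leaving out samples.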

Additional observations from a re-analysis of the deposited data

How the results depend on the processing

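No member was called by limma, or by the methods' t-test after Benjamini-Hochberg adjustment, under any of the alternatives in any of the 3 comparisons. The t-test at an unadjusted p under 0.05 gave 4 of the 38 members without C5 higher and 1 lower in MHs against control SHPCs, 1 higher and 1 lower with BM-MCs against controls, and 2 higher and 0 lower with BM-MCs against MHs. The shares of all probes beside these counts were 9.39% and 8.08%, 8.12% and 6.82%, and 4.39% and 4.87%. The median of the 39 members in MHs against controls was 0.12 with no scaling. With BM-MCs against controls it was -0.16 with median scaling, 0.13 with quantile normalization and -0.060 with the row of the slide as a block. With BM-MCs against MHs it was -0.19 with median scaling, -0.076 with no scaling, 0.070 on 7 arrays after normexp and quantile normalization, and -0.10 with the row as a block. With median scaling the median of all tested probes moved as well, to -0.17 with BM-MCs against controls and -0.19 against MHs, so that relative to it the members stayed at 0.02 and 0.00. With quantile normalization they stood 0.15 and 0.10 above the median of all probes in these comparisons, and with normexp and quantile normalization 0.096 and 0.11. With no scaling the median of all probes moved to 0.12 in MHs against controls. Without the filter on dim probes it was -0.14, 0.13 and 0.20 in the 3 comparisons. Leaving out 1 sample at a time, or both replicates 3 (chosen after seeing the data), gave medians of -0.02 to 0.07, 0.010 to 0.093 and -0.04 to 0.04 in the 3 comparisons, and without BM-MC replicate 1 the second was 0.093. Cfd (0.026) and Mbl1 (-0.058) with BM-MCs against MHs reversed with the row as a block. These groups shared no row, so that the block moves them by the difference of control replicate 3 from control replicates 1 and 2. A shift of the row and one of that sample cannot be told apart.

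Equal numbers in the titles of samples are not stated to mark a shared animal, litter or day. The correlations of deviations between equal numbers of control and BM-MC SHPCs were 0.13, 0.08 and 0.17 over all tested probes and 0.08, 0.76 and 0.61 over the 39 members, in neither case all over 0.1. Over all tested probes 5 of 6 SHPC samples correlated best with their own number. With the replicate block, 0 members were called in each comparison, and the medians were 0.06, 0.03 and -0.05. C5 gives no fold because neither marked control array was well above background, and the groups of 2 or 3 samples limit every value above.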
